A study of Mus musculus with 28 samples.

Results

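The data describe mouse hearts that underwent myocardial infarction (MI) on postnatal day 1, an age at which the mouse heart can still replace lost muscle, and that were sampled 21 days later. The comparison covers 6 of the 28 libraries of the series, chosen by their labels: 3 from infarcted mice (1d-MI + 21) and 3 from sham-operated mice of the same age (1d-SHAM + 21), each library from 1 mouse. All animals were male Hsd:ICR(CD-1) mice, an outbred stock without a transgene, and were 22 days old when the heart was taken. MI was produced by ligation of the left anterior descending coronary artery, and the sham group went through the operation only. The RNA came from left ventricular wall remote from the infarct, so the site of the former infarct itself was not sampled. Whole-transcriptome libraries were sequenced, and the values are counts of reads per gene. Other libraries were used as reference: 3 sham and 3 MI mice operated at day 7 and sampled 21 days later, aged 28 days (7d-SHAM + 21 and 7d-MI + 21), and 4 sham and 4 MI mice operated at day 1 and sampled after 3 days (1d-SHAM + 3 and 1d-MI + 3). The animal names of each group share a prefix, a different one for sham and for MI, so the operation and anything else that a litter or a day of sampling shares cannot be told apart. The hour of sampling is not given in the sources used here.

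For a few days after birth, cardiomyocytes of the mouse can divide and rebuild injured muscle. They then leave the cell cycle, and their mitochondria expand and move from glucose to fatty acids as the main fuel, a step driven by the coactivator PGC-1α with the PPAR and ERR receptors. Immediate early genes are a different class: they code for transcription factors and feedback regulators that respond within minutes to hormones, stretch, calcium or handling, without new protein synthesis. The NR4A orphan receptors belong to them and are induced by cAMP, the messenger of β-adrenergic stimulation. Every heart cell also runs a circadian clock, in which BMAL1 (gene *Arntl*) and CLOCK bind E-boxes and drive the *Per* and *Cry* repressors, the REV-ERB receptors and the PAR bZIP factor DBP. Glucocorticoids, released in the daily cycle and under stress, drive a further set that includes *Tsc22d3* and *Fkbp5*.

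The libraries differed in depth, ribosomal RNA and composition. Where such a value separated the groups, the operation and anything else that a group shares cannot be told apart. Total counts ran from 40514177 to 78497598 in 1d-SHAM + 21 and from 59999353 to 168550985 in 1d-MI + 21. Ribosomal RNA took 3.05%, 78.1% and 0.746% of the counts in the sham libraries (replicates 2, 3 and 5) and 19.5%, 53.1% and 2.15% in the MI libraries (replicates 1, 2 and 3), which left 17226112 counts in the sparsest library. Levels are therefore given as counts-per-million (CPM) values on library sizes scaled with TMM, the trimmed mean of M values, and they are always given in this order of replicates. Transcripts of the mitochondrial genome, its ribosomal RNAs included, made up 44.9%, 37.5% and 53.6% of counts outside nuclear ribosomal RNA in sham libraries. In MI libraries they made up 26.2%, 25.7% and 23.0%. The ribosomal shares above do not include mitochondrial ribosomal RNA. Olfactory and vomeronasal receptor genes, which are not known to act in heart muscle, summed to 54.4, 122 and 146 CPM in sham and 11.1, 21.7 and 58.6 CPM in MI libraries. Fold changes also followed base composition. Over 9981 protein-coding genes at 3 CPM or more, sorted by the GC content of their longest transcript into 8 bins, the median log2 fold change was −0.36 in the bin of lowest GC and 0.69 in the second highest (54.4% to 57.1% GC). For this reason the median of each list below is given also after per-library trends on GC content, transcript length and abundance were removed, a correction chosen after the data were seen and written here as "corrected".

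**Figure D1:**
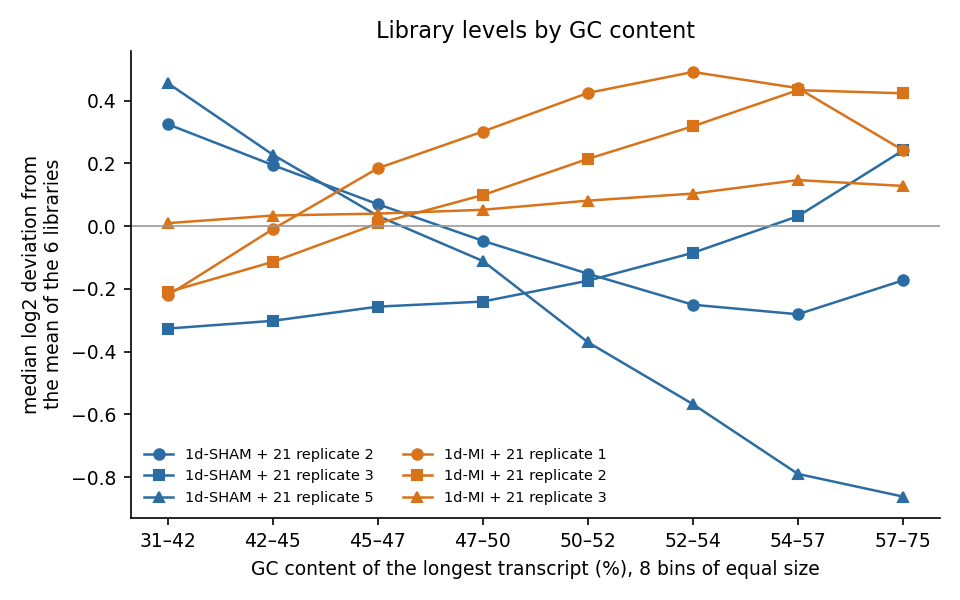
Median log2 deviation from the mean of the 6 libraries (vertical axis) in 8 bins of GC content of the longest transcript (horizontal axis, percent), 9981 protein-coding genes at 3 CPM or more; each line is 1 library, blue for 1d-SHAM + 21 and orange for 1d-MI + 21. Sham replicates 2 and 5 lie lower in the last bin than in the first, and sham replicate 3 and the 3 MI libraries lie higher.

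Few genes stood apart at the threshold. Of 24646 genes tested, 4 passed (0.0162%) with a fit of all 12 libraries of the 21-day follow-up, 2 higher and 2 lower after MI (edgeR quasi-likelihood test, Benjamini-Hochberg adjusted p under 0.05), and 3599 had an unadjusted p under 0.05. The biological coefficient of variation was 0.567 in this fit and 0.403 with the 6 libraries. When the 2 groups were fitted alone (the 2-group fit), 443 of 20609 genes passed as higher (2.15%) and 157 as lower (0.762%). That count rested on single libraries: it was 0 without MI replicate 1, 7 without sham replicate 2, 9 without MI replicate 2, 230 without sham replicate 5 and 3109 without sham replicate 3. The 12-library count rested on a library outside the comparison as well, since 1209 genes passed without 7d-SHAM + 21 replicate 1. For MI against sham at day 7, 0 of 24646 genes passed in the 12-library fit, so the day 7 effects below are values without a call. After correction, the 2 groups alone gave 342 higher (1.67%) and 374 lower genes (1.83%), and 287 of the 600 uncorrected calls were among these 716. All 3 MI libraries lay above all 3 sham libraries for 15.6% of the genes tested and below them for 11.8%. At 3 CPM or more, these shares were 28% and 7.15% of 10780 genes. Genes under 3 CPM lay more often below than above. Gene lists hold members from both ranges, so each is to be read against both pairs of shares. At 3 CPM or more lay 23 of 47 tested genes of the inflammation list and 8 of 31 of mitosis and cytokinesis. The same held for 5 of 13 white adipocyte, 4 of 11 mesothelial and 0 of 7 thymus markers. The median log2 fold change was −0.11 over all genes tested and 0.24 at 3 CPM or more, and another scaling moved the first by −0.11 (relative log expression) or −0.32 (upper quartile).

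*Nr4a3*, which codes for the orphan nuclear receptor NOR-1, was the clearest difference among protein-coding genes. It measured 2.42, 1.29 and 3.42 CPM in 1d-SHAM + 21 and 57.7, 46.4 and 22.4 CPM in 1d-MI + 21, so the lowest MI library stood well above the highest sham library. The gene rose by 4.13 ± 0.57 (SE) on the log2 scale (edgeR adjusted p = 0.019). With 1 of the 12 libraries left out in turn, its adjusted p in edgeR ran from 1.08e-04 to 0.228, and the call was lost without sham replicate 2, sham replicate 3, MI replicate 1 or MI replicate 2. In mice operated at day 7, the same gene measured 1.82 to 5.73 CPM after sham and 2.17 to 6.10 CPM after MI. The difference of the MI effect between the ages was −3.86 (log2) and did not pass (edgeR adjusted p = 0.324). Shortly after MI at day 1, at 3 days, *Nr4a3* measured 1.61 ± 1.11 CPM in sham and 2.77 ± 0.678 CPM in MI hearts (SD, n = 4), a log2 difference of 0.76 (edgeR adjusted p = 0.2). Of the other members of the family, *Nr4a1* measured 6.09, 2.98 and 2.2 against 18.7, 31.8 and 6.25 CPM, without overlap, and *Nr4a2* measured 1.36, 0.968 and 0.816 against 0.901, 2.05 and 1.04 CPM, with overlap.

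The promoter window of *Nr4a3* is shown because the gene led the comparison. It spans 250 bases before to 50 bases after the start site that RefSeq gives (GRCm38.p6, chr4:48045055-48045354, strand +). The full cAMP response element (CRE, TGACGTCA), the NR4A element NBRE (AAAGGTCA) and the E-box (CACGTG) were searched on both strands, and the window holds none of them. They occur in 1.88%, 1.46% and 7.24% of 27025 such windows. Capitals mark the core of the CRE (TGACG or its complement CGTCA), a motif searched after the window had been read and contained in the full CRE. It occurs 4 times here, at 231, 213, 205 and 147 bases before the start site. At least 1 core is found in 21% of all windows and at least 4 in 0.252% (68 windows).
Nr4a3: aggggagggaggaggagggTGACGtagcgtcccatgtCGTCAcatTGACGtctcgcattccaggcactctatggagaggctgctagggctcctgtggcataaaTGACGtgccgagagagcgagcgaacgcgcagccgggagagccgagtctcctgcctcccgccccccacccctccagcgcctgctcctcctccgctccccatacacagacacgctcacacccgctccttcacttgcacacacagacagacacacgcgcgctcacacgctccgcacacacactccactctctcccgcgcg

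The other gene that rose is a transcript without a protein name, *AI506816* (chr5:23698296-23712667). It measured 0.427, 0.323 and 0.884 CPM in sham and 5.06, 5.50 and 4.19 CPM in MI libraries and rose by 3.15 ± 0.47 (SE) (log2; edgeR adjusted p = 0.0369). Its call was lost without any 1 of sham replicates 2 and 3, MI replicates 1 and 2 or the 3 libraries of 7d-MI + 21 (highest edgeR adjusted p = 0.458). The mice operated at day 7 gave a like pattern, with 0.554 to 1.60 CPM after sham and 8.53 to 9.22 CPM after MI. The pair that fell is 1 locus on chromosome 6. *Gm7292* (chr6:117716342-117718868) lies inside the long noncoding RNA gene *1700030F04Rik* (chr6:117646693-117751769), and reads of the pair cannot be told apart where they overlap. *Gm7292* measured 10.3, 1.69 and 7.62 CPM in sham and 0.235, 0.262 and 0.349 CPM in MI libraries, and *1700030F04Rik* measured 3.20, 1.05 and 2.43 against 0.0261, 0.109 and 0.0107 CPM. *Gm7292* fell, with a log2 difference of −4.51 ± 0.56 (SE), and so did *1700030F04Rik*, with −5.98 ± 0.78 (SE) (edgeR adjusted p = 0.0157 for each). Each call was lost without sham replicate 2 or MI replicate 1, and that of *Gm7292* also without MI replicate 2. In the groups operated at day 7, *Gm7292* measured 4.51 to 4.98 CPM after sham and 4.95 to 9.15 CPM after MI.

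Immediate early genes as a list leaned the same way. Of 46 members tested, *Nr4a3* included, 19 had all MI libraries above all sham libraries and 0 had the reverse, where 28% and 7.15% would be the shares among expressed genes. Their median log2 fold change was 0.53, against 0.24 over genes at 3 CPM or more, and 0.11 after correction. *Fos*, a subunit of the AP-1 factor, measured 1.97, 1.13 and 1.90 CPM in sham and 4.44, 11.3 and 6.86 CPM in MI hearts. *Atf3*, a stress-induced repressor, measured 1.65, 1.77 and 1.43 against 16.1, 12.8 and 2.65 CPM. *Maff*, a small MAF factor, measured 2.48, 4.44 and 1.22 against 12.4, 18.5 and 8.49 CPM. In each of these the groups did not overlap, and MI replicate 3 was the lowest MI library for *Atf3* and *Maff*, as it was for *Nr4a3*. None passed in the 12-library fit (edgeR adjusted p = 0.167, 0.198 and 0.217), whereas 8 members passed in the 2-group fit and 4 in its corrected form, all higher. The shares of all genes that passed as higher were 2.15% and 1.67%. *Sik1*, a kinase that restrains CREB coactivators and was chosen after its values were seen, measured 18.0, 21.5 and 9.12 against 71.6, 84.3 and 27.2 CPM. The list was not uniform, as *Egr1*, a zinc-finger factor that usually rises with *Fos*, measured 8.04, 6.17 and 4.72 CPM in sham and 2.40, 5.15 and 5.22 CPM in MI hearts.

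**Figure D2:**
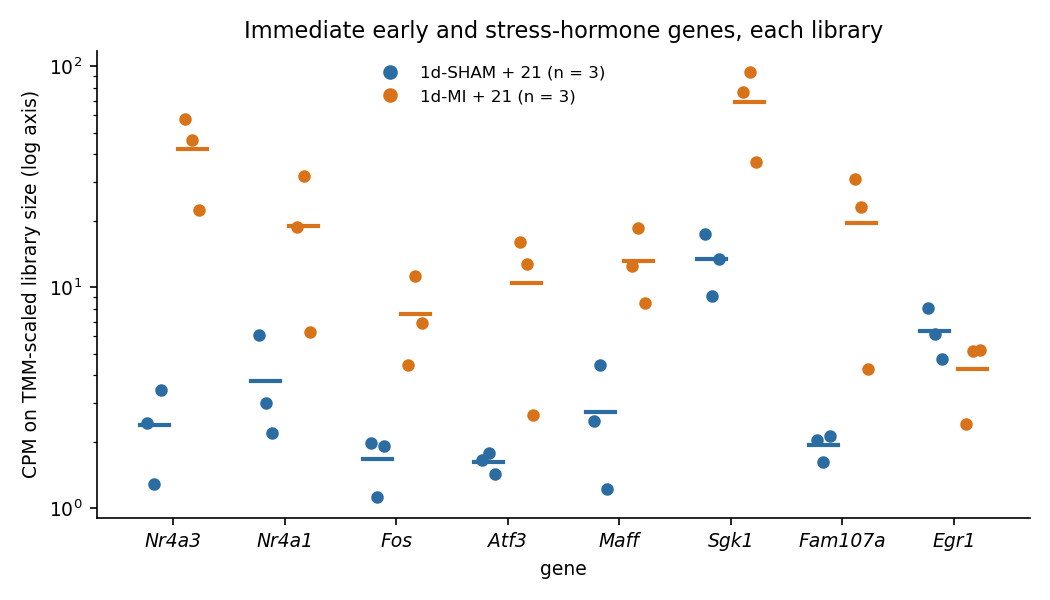
CPM of 8 genes (log axis) in each library: *Nr4a3*, *Nr4a1*, *Fos*, *Atf3*, *Maff*, *Sgk1*, *Fam107a* and *Egr1*; blue points are 1d-SHAM + 21, orange points 1d-MI + 21, and bars the group means. The groups do not overlap for the first 7 genes, and they overlap for *Egr1*.

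Clock genes differed in opposite directions. Of 19 members, 5 had all MI libraries above and 5 had all MI libraries below all sham libraries, and 9 overlapped. Among genes at 3 CPM or more the shares were 28% above and 7.15% below. The median of the 19 was 0.31, 0.04 corrected, and turned to −0.06 with upper-quartile scaling. *Arntl*, the positive arm of the clock, measured 6.17, 2.94 and 4.08 CPM in sham and 24.0, 19.8 and 12.8 CPM in MI hearts, a log2 difference of 2.09 ± 0.43 (SE). *Cry1*, a repressor that peaks late in the cycle, measured 2.82, 2.18 and 1.72 against 13.7, 13.6 and 6.18 CPM, a difference of 2.31 ± 0.44 (SE). *Nfil3*, a repressor in antiphase to DBP, measured 4.68, 3.55 and 3.02 against 16.8, 14.7 and 6.72 CPM. All 3 were higher after MI without overlap. In the other direction stood *Dbp*, an output factor, with 18.7, 52.4 and 15.7 CPM in sham and 3.53, 4.93 and 6.48 CPM in MI hearts, a difference of −2.53 ± 0.68 (SE). Genes chosen after their values were seen followed *Dbp*: *Per3* measured 9.49, 7.62 and 8.28 against 3.16, 2.22 and 3.71 CPM, *Nr1d2* (REV-ERBβ) 44.7, 35.5 and 55.6 against 10.9, 10.2 and 25.9 CPM, and the repressor *Bhlhe41* 8.86, 12.9 and 8.19 against 4.82, 4.38 and 4.91 CPM. In the known daily cycle the genes above and those below peak at roughly opposite times, while *Per1* and *Per2* overlapped between groups, with *Per1* at 15.1, 10.6 and 6.28 against 23.9, 21.8 and 8.95 CPM. None of the 19 passed in the 12-library fit, where *Cry1*, *Arntl* and *Dbp* had an edgeR adjusted p of 0.198, 0.198 and 0.284. In the 2-group fit 4 passed as higher and 3 as lower, where 2.15% and 0.762% of all genes did. In its corrected form 3 passed as higher and 5 as lower, where 1.67% and 1.83% of all genes did.

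In mice operated at day 7, *Cry1* and *Arntl* lay closer to their sham values and *Dbp* pointed the other way. The MI effect at 21 days was 0.48 for *Cry1*, 0.96 for *Arntl* and 0.75 for *Dbp* (log2), and the differences between ages did not pass (edgeR adjusted p = 1, 1 and 0.935). At 3 days after MI at day 1 the effects were −0.28, 0.11 and 0.13. As the hour at which each heart was taken is not given, the operation and the time of day cannot be told apart for these genes.

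**Figure D3:**
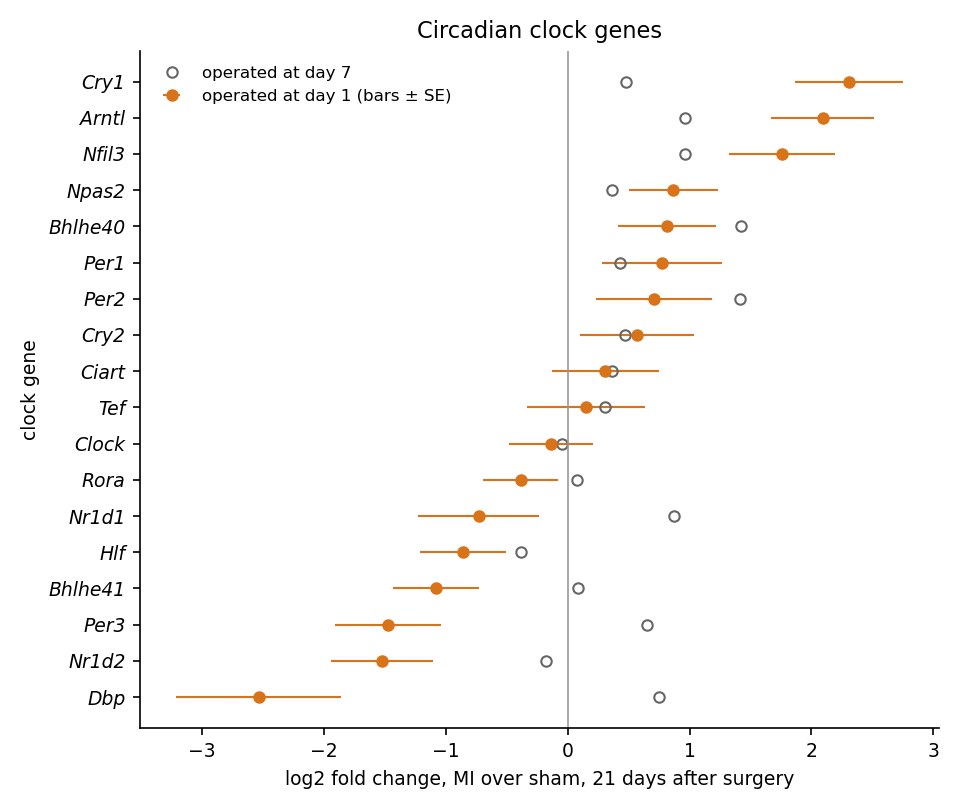
log2 fold change of 18 of the 19 clock genes, 1d-MI + 21 over 1d-SHAM + 21 (filled points, bars ± SE), beside the same effect in mice operated at day 7 (open points), sorted by the first. *Cry1*, *Arntl* and *Nfil3* lie at the upper end and *Dbp*, *Nr1d2* and *Per3* at the lower end for the day 1 groups.

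Promoter windows of 4 clock genes are shown as 2 genes from each direction. Capitals mark the E-box, CACGTG, and the core of the CRE, TGACG. The E-box occurs in 5 of the 16 clock genes with a window (31.2%), those of *Bhlhe41*, *Ciart*, *Cry1*, *Per1* and *Tef*, against 7.24% of all windows. *Cry1* (chr10:85185005-85185304, strand -) holds it at 60 bases before the start site and a core of the CRE at 8 bases before it, and *Bhlhe41* (chr6:145865371-145865670, strand -) holds the E-box at 153 bases before it. The windows of *Arntl* (chr7:113207215-113207514, strand +) and *Dbp* (chr7:45704997-45705296, strand +) hold none of the motifs. Presence of the E-box did not sort the genes by direction, since *Cry1* stood above and *Bhlhe41* below their sham values.
Cry1: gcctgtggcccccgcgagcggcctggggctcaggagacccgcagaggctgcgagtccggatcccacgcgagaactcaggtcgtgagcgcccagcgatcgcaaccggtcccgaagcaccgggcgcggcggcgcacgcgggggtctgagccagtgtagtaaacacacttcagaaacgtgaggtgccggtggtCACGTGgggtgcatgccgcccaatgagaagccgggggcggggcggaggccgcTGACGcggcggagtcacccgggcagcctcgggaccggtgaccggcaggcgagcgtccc
Arntl: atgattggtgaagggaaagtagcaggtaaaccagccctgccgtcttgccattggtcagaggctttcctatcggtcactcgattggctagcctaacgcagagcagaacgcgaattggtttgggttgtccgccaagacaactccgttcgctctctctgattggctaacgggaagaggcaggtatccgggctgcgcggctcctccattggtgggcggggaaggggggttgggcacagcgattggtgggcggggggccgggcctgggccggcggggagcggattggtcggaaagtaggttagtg
Dbp: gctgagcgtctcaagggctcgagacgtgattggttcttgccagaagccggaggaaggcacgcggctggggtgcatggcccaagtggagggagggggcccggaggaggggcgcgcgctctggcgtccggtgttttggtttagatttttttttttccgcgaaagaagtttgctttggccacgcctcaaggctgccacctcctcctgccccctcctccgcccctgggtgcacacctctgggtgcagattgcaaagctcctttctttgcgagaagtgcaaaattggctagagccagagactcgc
Bhlhe41: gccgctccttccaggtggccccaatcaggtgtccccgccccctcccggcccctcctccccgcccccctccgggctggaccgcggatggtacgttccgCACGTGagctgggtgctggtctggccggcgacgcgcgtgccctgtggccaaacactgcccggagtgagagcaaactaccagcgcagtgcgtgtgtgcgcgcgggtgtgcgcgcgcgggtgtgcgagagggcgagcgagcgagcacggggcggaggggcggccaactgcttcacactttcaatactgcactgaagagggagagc

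Glucocorticoid-responsive genes leaned upward. Of 23 tested, 9 had all MI libraries above all sham libraries and 0 below, where 28% and 7.15% of genes at 3 CPM or more did so. The median of the list was 0.81, and 0.59 after correction. *Sgk1*, a kinase that regulates ion channels, measured 17.5, 9.11 and 13.5 CPM in sham and 76.6, 94.3 and 36.7 CPM in MI hearts. *Fam107a*, a stress-induced actin regulator, measured 2.04, 1.61 and 2.13 against 31.1, 23.2 and 4.25 CPM. *Tsc22d3*, which codes for the glucocorticoid-induced leucine zipper, measured 76.4, 59.7 and 54.3 against 166, 206 and 113 CPM, and the p53 and glucocorticoid target *Cdkn1a*, an inhibitor of cyclin-dependent kinases, 6.18, 4.52 and 7.57 against 24.4, 17.9 and 17.6 CPM. These 4 did not overlap between groups and passed in the 2-group fit (edgeR adjusted p = 0.024, 0.0252, 0.0441 and 0.0267), but not in that of 12 libraries (0.208, 0.198, 0.284 and 0.194). *Fkbp5*, a chaperone of the receptor, overlapped, at 2.96, 2.82 and 9.41 against 24.5, 16.5 and 7.75 CPM. The heat shock list had 7 of 24 members above and 1 below, near those shares, and a median of 0.48, 0.19 corrected. Its member *Fkbp4*, a co-chaperone of steroid receptors, measured 58.7, 98.0 and 35.8 against 251, 281 and 199 CPM.

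*Agt*, which codes for angiotensinogen, the precursor of angiotensin II, was among the largest differences. It measured 0.923, 2.26 and 0.794 CPM in sham and 17.6, 37.5 and 10.3 CPM in MI hearts, a log2 difference of 4.07 ± 0.77 (SE) that passed in the 2-group fit (edgeR adjusted p = 0.0123) and not in that of 12 libraries (0.194). The day 7 groups measured 0.287 to 3.11 CPM after sham and 0.944 to 2.94 CPM after MI. None of the other 10 genes of the renin-angiotensin list passed in either fit, and 1 of them had all MI libraries below all sham libraries. The median of the 11 was −0.22, −0.26 corrected.

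Some regulators of mitochondrial metabolism stood higher after MI. Of 34 members of the PGC-1, PPAR and ERR list, 13 had all MI libraries above and 3 had all below the sham libraries. Among genes at 3 CPM or more 28% and 7.15% did so. The median of the 34 was 0.50, and 0.18 after correction. In the 2-group fit 2 passed as higher and 0 as lower, where 2.15% and 0.762% of all genes did. In its corrected form 2 passed as higher and 1 as lower, where 1.67% and 1.83% of all genes did. A fold change above 0 was found for 23 of the 34, beside 6851 of the 10780 genes at 3 CPM or more. *Ppargc1a*, the gene of PGC-1α, measured 96.5, 63.3 and 95.1 CPM in sham and 233, 202 and 154 CPM in MI hearts, a log2 difference of 1.21 ± 0.33 (SE). It did not pass in the 12-library fit (edgeR adjusted p = 0.284) and passed in the corrected 2-group fit (0.00981, log2 1.45 in the corrected 12-library fit). Its effect at day 7 was −0.91, of opposite sign, and the difference between ages was −2.12 (edgeR adjusted p = 0.599). *Perm1*, a muscle-specific partner induced by PGC-1, measured 55.8, 63.7 and 49.5 against 237, 160.3 and 121 CPM. The receptor gene *Ppara*, which drives fatty acid oxidation, measured 7.74, 5.60 and 4.78 against 16.7, 11.1 and 11.2 CPM, and *Klf15*, a glucocorticoid target that controls cardiac lipid use, 13.4, 16.9 and 6.17 against 43.3, 54.0 and 26.7 CPM.

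Genes of the fuel pathways stood above in part. Fatty acid oxidation had 16 of 44 members above without overlap and 1 below, glycolysis 23 of 39 and 1, and the TCA cycle 17 of 27 and 0, where 28% and 7.15% of expressed genes did so. Their medians were 0.62, 0.70 and 0.69, and 0.25, 0.25 and 0.29 after correction. *Acadvl*, the very long chain acyl-CoA dehydrogenase of β-oxidation, measured 117, 140.3 and 96.2 CPM in sham and 496, 300.0 and 253 CPM in MI hearts. *Cpt1b*, the muscle form of the enzyme that admits fatty acids to mitochondria, measured 107, 216 and 78.7 against 422, 378 and 258 CPM, and *Slc25a20*, the carnitine-acylcarnitine carrier, overlapped at 37.9, 67.5 and 34.3 against 80.3, 55.9 and 64.2 CPM. On the glucose side, *Gys1*, muscle glycogen synthase, measured 20.3, 20.2 and 12.7 against 63.4, 57.0 and 40.5 CPM, *Hk1*, a hexokinase, 36.6, 35.6 and 27.3 against 125, 60.1 and 63.3 CPM, and *Pdk4*, which blocks pyruvate entry to the TCA cycle, 80.0, 167 and 100.2 against 192, 201 and 214 CPM. In the 2-group fit 5 genes of fatty acid oxidation, 4 of glycolysis and 2 of the TCA cycle passed, all as higher, and in its corrected form 1, 1 and 0. Of all genes, 2.15% passed as higher in the 2-group fit and 1.67% in its corrected form. *Plin4*, a lipid droplet coat protein, measured 13.2, 7.70 and 11.2 against 48.6, 32.3 and 34.8 CPM.

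Transcripts of the mitochondrial genome went the other way. All 13 protein genes had a fold change below 0, 12 of them without overlap, and the median was −1.24. Their summed level was 198559 to 236819 CPM in sham and 122900 to 137880 CPM in MI libraries. *mt-Nd6*, the light-strand gene of complex I, measured 4097, 6704 and 5253 CPM in sham and 1688, 1794 and 2163 CPM in MI hearts, and *mt-Nd3*, also of complex I, 43.5, 58.9 and 102 against 13.7, 21.7 and 23.6 CPM. None of the 13 passed in the 12-library fit. In the 2-group fit 5 passed as lower, where 0.762% of all genes did, and 0 of 13 passed after correction, when the median was −0.60. These genes have a GC content of 31.9% to 41.1%, within the range in which low-GC nuclear genes were lower too. At day 7 the median was −1.32, and none of the 13 passed for MI against sham in the 12-library fit.

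Nuclear genes of the respiratory chain stood on both sides. Of 79, 13 were above and 21 below without overlap, where 28% and 7.15% of genes at 3 CPM or more were. The median of the 79 was −0.39, and −0.53 after correction. The median was −0.24 without MI replicate 1, −0.04 with the replicate number as a block and −0.71 with upper-quartile scaling. Among those above, *Sdhb*, the iron-sulphur subunit of complex II, measured 117, 63.4 and 75.5 CPM in sham and 278, 222 and 182 CPM in MI hearts. Among those below, *Atp5e*, the ε subunit of ATP synthase, measured 264, 357 and 272 against 69.1, 117 and 133 CPM, *Ndufb11* of complex I 253, 273 and 284 against 95.6, 128 and 130.5 CPM, and *Atp5j* of ATP synthase 896, 656 and 1077 against 339.6, 397 and 446 CPM. The ribosomal protein gene *Rps27* measured lower, at 334, 541 and 397 against 112, 195 and 241 CPM. Its list went the other way, with 18 of 76 cytosolic ribosomal protein genes above and 7 below and a median of 0.18, −0.06 corrected. In the 2-group fit 4 of the 79 passed as higher and 3 as lower, where 2.15% and 0.762% of all genes did. In its corrected form 2 passed as higher and 8 as lower, where 1.67% and 1.83% of all genes did.

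**Figure D4:**
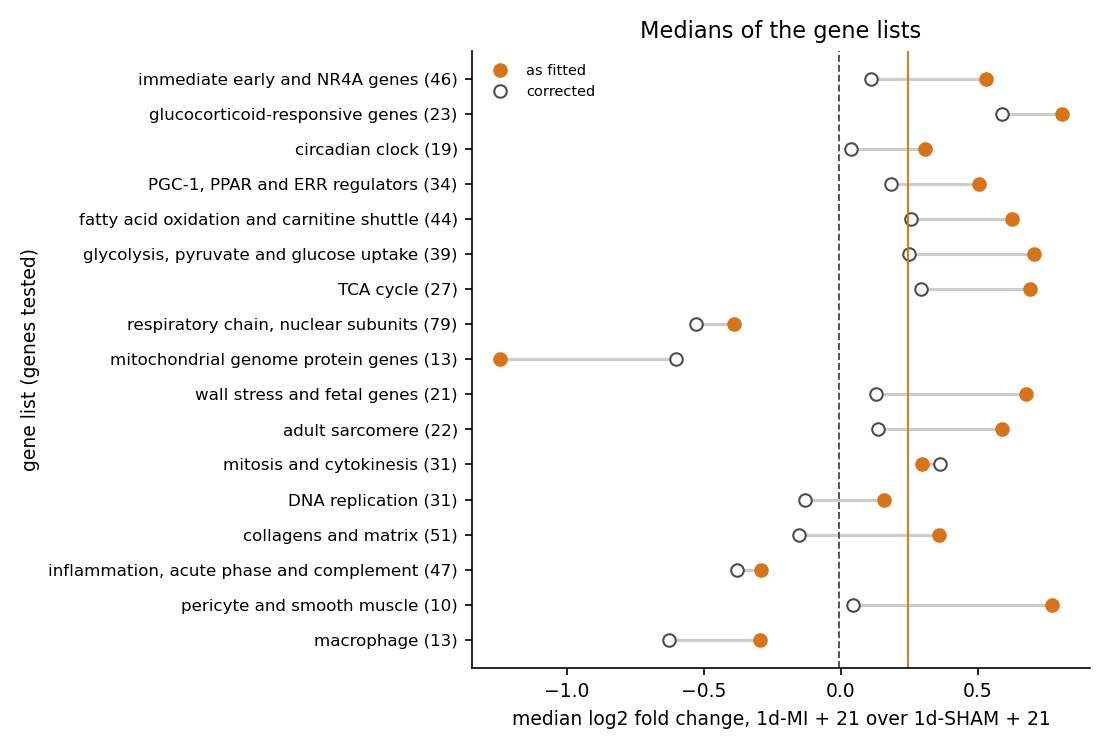
Median log2 fold change, 1d-MI + 21 over 1d-SHAM + 21, of 17 gene lists before (filled points) and after (open points) removal of trends on GC content, length and abundance; the vertical lines give the medians of genes at 3 CPM or more before (solid) and after (dashed). Most lists move toward 0. After correction glucocorticoid-responsive genes lie at 0.59 and the nuclear subunits of the respiratory chain at −0.53. Lower still lie mitochondrial genome protein genes at −0.60 and macrophage markers at −0.63, the latter from −0.30 before.

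Wall stress and fetal genes differed member by member. Of 21 tested, 10 had all MI libraries above and 0 below, where 28% and 7.15% of genes at 3 CPM or more did so. The median of the 21 was 0.67, and 0.13 after correction. *Nppb*, the gene of B-type natriuretic peptide, measured 267, 117 and 346 CPM in sham and 526, 557 and 368 CPM in MI hearts, and *Myh7*, the slow myosin heavy chain, 183, 172 and 135 against 384, 221 and 213 CPM. *Xirp1*, a protein of the intercalated disc, measured 27.7, 43.5 and 17.6 against 165, 83.5 and 62.5 CPM and passed in the 2-group fit (edgeR adjusted p = 0.0452). *Nppa* overlapped, at 689, 119 and 965 against 392, 948 and 1206 CPM, and so did *Ankrd1*, a stretch-induced titin partner, at 175, 321 and 249 against 259, 177 and 221 CPM. Atrial markers varied within the groups, with a sum of 214 to 1033 CPM in sham and 436 to 1416 CPM in MI libraries over 9 markers tested, 0 above and 1 below without overlap and with a median of 0.42, −0.03 corrected, and their part in these values was not tested. At day 7 the same list had a median of 1.17, with *Ankrd1* at 1.70, *Nppa* at 2.74 and *Acta1*, skeletal α-actin, at 1.75, against −0.18, 0.52 and 0.98 at day 1 (log2). The adult sarcomere list had 9 of 22 above and 0 below, with a median of 0.59, 0.14 corrected.

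Cell cycle genes stayed at low levels in both groups. Of 31 genes of mitosis and cytokinesis, 7 were above and 1 below without overlap. Such shares were 15.6% and 11.8% of all genes tested and 28% and 7.15% at 3 CPM or more. The median of the 31 was 0.30, 0.36 after correction and −0.05 with upper-quartile scaling. It ran from 0.09 to 0.60 with 1 of the 6 libraries left out. *Cdk1*, the mitotic kinase, measured 1.43, 1.21 and 1.04 CPM in sham and 4.45, 3.05 and 3.90 CPM in MI hearts and passed in the 2-group fit (edgeR adjusted p = 0.0401). *Ccnb2*, a cyclin that activates it, measured 0.703, 1.37 and 0.703 against 3.62, 2.14 and 1.99 CPM. *Mki67*, a proliferation marker, overlapped, at 8.99, 6.73 and 17.9 against 9.64, 5.58 and 11.5 CPM, and DNA replication genes had 5 of 31 above and 1 below, with a median of 0.16, −0.13 corrected. The linker histone gene *Hist1h1b* measured 2.62, 3.63 and 0.816 against 10.7, 8.27 and 8.94 CPM, whereas the core histone gene *Hist1h4h* measured 13.6, 16.9 and 17.1 against 3.30, 4.93 and 6.45 CPM. The replication-dependent histone list had 8 of 36 above and 2 below, with a median of 0.07, 0.02 corrected. Histone genes have near-identical copies, so their counts are uncertain.

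Some matrix genes stood higher after MI, and the leading genes of scar formation overlapped between the groups. Of 51 tested, 19 had all MI libraries above and 2 below, where 28% and 7.15% of genes at 3 CPM or more did so. The median of the list was 0.36, −0.15 after correction and 0.02 with upper-quartile scaling. In the 2-group fit 3 of the 51 passed as higher and in its corrected form 3, where 2.15% and 1.67% of all genes did. *Col6a1*, a microfibrillar collagen, measured 75.3, 74.1 and 73.3 CPM in sham and 275, 245 and 168 CPM in MI hearts and passed in the 2-group fit (edgeR adjusted p = 0.0275). *Timp3*, a matrix-bound protease inhibitor, measured 115, 111 and 145 against 314, 270.2 and 171 CPM. The genes that mark active scar formation overlapped: *Col1a1* measured 160.0, 142 and 249 against 101, 166 and 188 CPM, *Postn* (periostin) 32.6, 24.2 and 74.0 against 17.5, 27.5 and 50.2 CPM and *Fn1* (fibronectin) 72.0, 48.1 and 130.5 against 76.7, 86.6 and 85.0 CPM. At day 7 these 3 had an MI effect of 1.08, 2.27 and 2.38 (log2), and the list had a median of 1.55. None of the 51 passed for MI against sham at day 7 in the 12-library fit. At 3 days after MI at day 1, 15 of the 51 passed as higher and 2 as lower, where 8.46% of 20345 genes passed, and *Fn1* measured 117 ± 11.5 CPM in sham and 325 ± 147 CPM in MI hearts (SD, n = 4; log2 1.48, edgeR adjusted p = 6.81e-04).

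Some smooth muscle markers stood higher as well. Of 10 tested, 6 had all MI libraries above and 0 below, where 28% and 7.15% of genes at 3 CPM or more did so. The median of the 10 was 0.77, and 0.05 after correction. In the 2-group fit 3 passed as higher and in its corrected form 1, where 2.15% and 1.67% of all genes did. Their sum was 806 to 997 CPM in sham and 1551 to 2038 CPM in MI libraries. *Acta2*, smooth muscle α-actin, measured 85.9, 152 and 36.4 CPM in sham and 440.2, 275 and 345 CPM in MI hearts, and *Tagln* 20.3, 17.1 and 12 against 32.1, 45.1 and 47.4 CPM, while the pericyte marker *Rgs5* overlapped at 308, 145 and 300.3 against 251, 194 and 179 CPM. In bulk tissue, more cells of a type and more RNA per cell cannot be told apart.

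*C7* and *C3*, genes of the complement system, measured lower in every MI library than in every sham library. Neither passed in the 12-library fit, and immune genes as a list were on both sides. The inflammation, acute phase and complement list had 2 of 47 members above and 8 below without overlap. Such shares were 28% and 7.15% of genes at 3 CPM or more and 15.6% and 11.8% of all genes tested. The median of the list was −0.29, and −0.38 after correction. That median was −0.14 without sham replicate 5, −0.14 without MI replicate 1 and −0.63 with upper-quartile scaling. *C7*, a complement component of the membrane attack complex, measured 16.3, 17.1 and 24.7 CPM in sham and 6.18, 7.89 and 7.60 CPM in MI hearts. It passed in the 2-group fit (edgeR adjusted p = 0.0324) and not in that of 12 libraries (0.283). *C3*, the central component, measured 35.1, 29.6 and 49.4 against 6.84, 18.5 and 17.6 CPM. Of the 47 members, 1 passed as lower in the 2-group fit and 1 in its corrected form, where 0.762% and 1.83% of all genes did. *H2-Eb1*, a class II antigen-presenting chain, measured 1.45, 3.23 and 2.49 against 0.353, 0.458 and 0.174 CPM, and *Cybb*, the phagocyte NADPH oxidase, 14.0, 12.3 and 21.5 against 5.97, 5.10 and 7.70 CPM. The list of MHC class II and antigen presentation as a whole had 3 of 16 above and 2 below, with a median of 0.24, −0.07 corrected. The class I gene *H2-D1* pointed the other way, at 78.8, 58.6 and 31.8 against 121, 194 and 126 CPM, although reads of the H2 genes can be shared between copies. The macrophage markers had 2 of 13 above and 2 below and a median of −0.30, −0.63 corrected, with *Timd4*, a marker of resident macrophages, at 3.28, 4.07 and 4.74 against 0.980, 1.33 and 1.94 CPM and *Lyve1*, another, at 7.62, 10.97 and 16.6 against 20.3, 21.9 and 19.8 CPM, and their sum overlapped at 260.4 to 421 CPM in sham and 298 to 388 CPM in MI libraries.

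At day 7 these genes had the opposite sign. The MI effect there was 2.74 for *C3*, 1.52 for *C7*, 1.18 for *H2-Eb1* and 0.88 for *Cybb*, against −1.41, −1.42, −2.91 and −1.35 at day 1 (log2). The difference between ages was 4.16 for *C3* (edgeR adjusted p = 0.101). Over all genes 0 of 24646 passed the test of that difference (0%) in edgeR, 927 had an unadjusted p under 0.05, and 44 passed in DESeq2. *Igf1*, a growth factor made by fibroblasts and macrophages, measured 50.3, 28.3 and 64.5 CPM in sham and 19.5, 21.6 and 24.3 CPM in MI hearts at day 1, and its effects were −1.13 at day 1 and 0.78 at day 7.

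**Figure D5:**
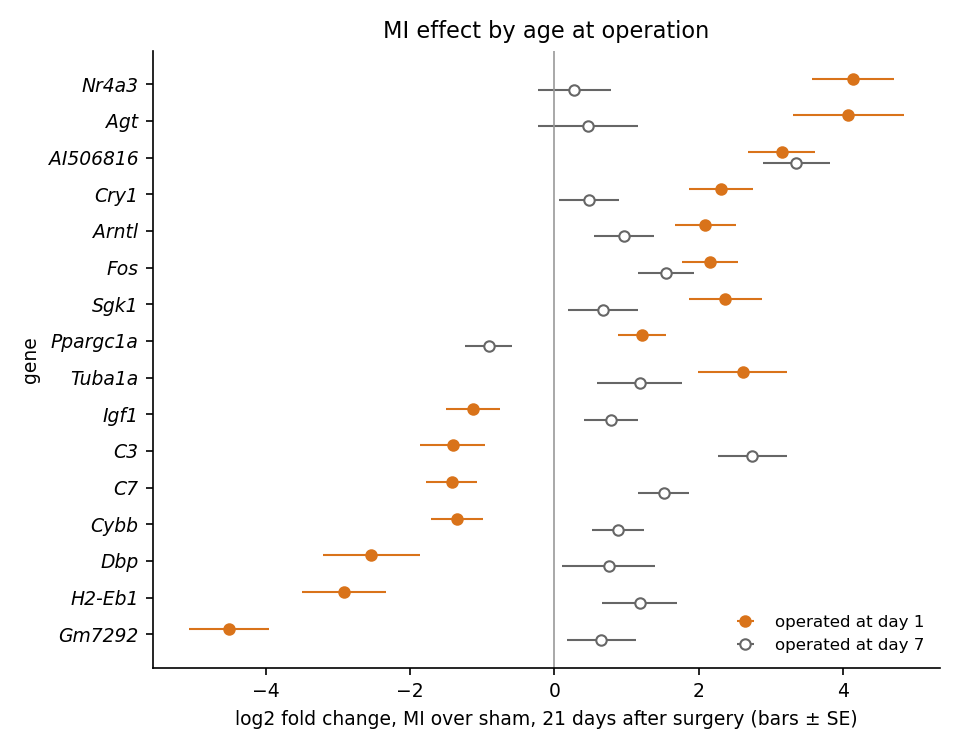
MI effect at 21 days (log2 fold change, bars ± SE) for 16 named genes in mice operated at day 1 (filled orange) and at day 7 (open grey). *Nr4a3*, *Agt* and *Cry1* lie above 2 for day 1 and under 1 for day 7, *AI506816* lies near 3 at both ages, and *C3*, *C7*, *H2-Eb1*, *Dbp* and *Ppargc1a* have opposite signs.

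Some of the largest differences lay outside the lists. Among protein-coding genes that passed in the 2-group fit without overlap, *Tuba1a*, an α-tubulin of growing and remodelling cells, measured 16.6, 10.9 and 12.1 CPM in sham and 74.2, 101 and 66.9 CPM in MI hearts, although close paralogs may share its reads. *Tppp3*, a tubulin polymerization protein, measured 5.33, 7.90 and 3.54 against 22.2, 34.0 and 29.9 CPM, and *Fem1a*, a substrate receptor of a ubiquitin ligase, 28.5, 42.0 and 22.4 against 185, 181 and 131 CPM. Lower after MI were the transcription factor genes *Sox12*, at 16.7, 17.9 and 12.5 against 4.47, 6.13 and 3.38 CPM, and *Foxo6*, at 4.20, 12.5 and 1.81 against 0.392, 0.872 and 1.15 CPM. *Abca6*, a lipid transporter gene, measured 16.8, 13.9 and 25.1 against 3.53, 4.30 and 9.96 CPM. *Ccdc38* and *Snrpf*, with 53.2, 70.1 and 81.8 against 19.2, 20.3 and 21.7 CPM and 62.0, 72.9 and 92.4 against 21.4, 22.4 and 25.0 CPM, overlap on chromosome 10 and count as 1 observation.

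Markers of cell types and of tissues that could adhere to the sample are given here. Shares above and below without overlap were 28% and 7.15% of genes at 3 CPM or more. Over all genes tested they were 15.6% and 11.8%. Cardiomyocyte markers, 10 of 10 tested, had 3 above and 1 below without overlap and a median of 0.53, 0.14 corrected. They summed to 27493 to 31869 CPM in sham and 32357 to 38688 CPM in MI libraries, with *Tnni3*, cardiac troponin I, at 1264, 2588 and 719 against 4208, 3958 and 3077 CPM. White adipocyte markers had 0 of 13 above and 3 below and a median of −1.76, −1.80 corrected, which ran from −2.15 to −0.18 with 1 of the 6 libraries left out. Their sum overlapped, at 514 to 861 CPM in sham and 523 to 735 CPM in MI libraries, and almost all of it came from the 5 markers at 3 CPM or more. *Adipoq* was not among these, at 1.93, 0.564 and 0.454 against 0, 0.284 and 0.416 CPM, 0 in MI replicate 1. Thymus markers had 0 of 7 above and 3 below, with a median of −1.95, −1.60 corrected, and summed to 1.61 to 8.65 CPM in sham and 0.314 to 1.26 CPM in MI libraries, with *Rag1* at 5.55, 0.0806 and 2.27 against 0.105, 0.611 and 0.278 CPM. Mesothelial markers had 0 of 11 above and 3 below, with a median of −0.67, −0.81 corrected, and summed to 49.1 to 73.9 CPM and 33.8 to 49.4 CPM. The medians of these 3 lists were below 0, as were the fold changes of *C3* and *C7*, and their part in those values was not tested. Skeletal muscle markers had 3 of 12 above and 2 below and a median of −0.32, −0.10 corrected. They summed higher after MI (596 to 1918 against 2099 to 3493 CPM), almost all of it from *Ckm*, muscle creatine kinase, which cardiomyocytes express too, at 773, 1908 and 583 against 3486, 2926 and 2090.4 CPM, while *Myh1* measured 0.606, 1.57 and 0.862 against 0, 0.0654 and 0.381 CPM.

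The remaining lists are given by their counts and medians. They stand beside shares without overlap of 28% above and 7.15% below among genes at 3 CPM or more. Over all genes tested the shares were 15.6% and 11.8%. Hypoxia targets had 10 of 22 above and 2 below, with *Vegfa* at 138, 192 and 67.8 against 474, 465 and 238 CPM, angiogenesis genes 11 of 30 and 3, antioxidant genes 14 of 34 and 3, and genes of cristae, fusion and fission 14 of 30 and 2. Their medians were 0.59, 0.67, 0.42 and 0.55, and 0.24, 0.14, −0.04 and 0.23 after correction. Serine synthesis and ATF4 targets had 8 of 21 above and 2 below and a median of 0.58, 0.25 corrected, with the amino acid transporter subunit *Slc3a2* at 9.34, 8.67 and 4.49 against 28.5, 28.2 and 15.1 CPM. Genes of cAMP and β-adrenergic signaling had 9 of 31 above and 2 below, near the shares of genes at 3 CPM or more. Their median was 0.30, −0.08 corrected and −0.02 with upper-quartile scaling. They summed to 6665 to 8126 CPM in sham and 5525 to 5738 CPM in MI libraries. In the 2-group fit 2 passed as higher and 0 as lower, and in its corrected form 0 and 2. The cardiac adenylyl cyclases measured higher, *Adcy5* at 23.4, 17.5 and 10.8 against 60.4, 41.7 and 36.5 CPM and *Adcy6* at 45.2, 30.4 and 34.8 against 143, 97.8 and 71.1 CPM. Each further list follows with its members above and below and, in parentheses, its median. Counts were, among cardiac and signaling genes, for cardiac transcription factors 2 and 3 of 24 (−0.09, −0.17 corrected), for TGF-β signaling 6 and 1 of 28 (−0.01, −0.18 corrected), for calcium handling 8 and 3 of 41 (0.18, −0.0013 corrected), for growth factor and Hippo signaling 6 and 2 of 29 (0.16, 0.06 corrected) and for thyroid hormone signaling 2 and 0 of 10 (0.24, −0.07 corrected). Among metabolic genes they were for fasting and FoxO targets 10 and 1 of 24 (0.74, 0.27 corrected), for lipid droplets 8 and 0 of 30 (0.44, 0.06 corrected), for ketone bodies 3 and 0 of 8 (0.56, 0.21 corrected) and for mitophagy 7 and 1 of 13 (0.48, 0.24 corrected). Among growth and housekeeping genes they were for p53 targets 6 and 2 of 23 (−0.09, −0.10 corrected), for cyclins, CDKs and their inhibitors 3 and 2 of 17 (−0.01, −0.31 corrected), for imprinted growth genes 1 and 2 of 16 (0.07, −0.07 corrected), for cytosolic ribosomal proteins 18 and 7 of 76 (0.18, −0.06 corrected), for abundant nuclear noncoding RNAs 2 and 0 of 14 (−0.48, 0.0031 corrected) and for interferon-stimulated genes 4 and 2 of 24 (−0.01, −0.10 corrected). Among the other marker lists they were for fibroblasts 2 and 0 of 10 (0.14, −0.11 corrected), for endothelium 3 and 0 of 10 (0.43, 0.07 corrected), for lymphocytes and neutrophils 1 and 2 of 13 (−0.45, −0.31 corrected), for brown adipocytes 3 and 3 of 11 (0.08, −0.39 corrected), for erythroid cells 1 and 3 of 9 (−0.85, −0.67 corrected), for nerve and glia 1 and 0 of 10 (0.15, 0.21 corrected), for lung 1 and 1 of 6 (−0.78, 0.45 corrected), for liver 0 and 0 of 6 (0.26, 0.84 corrected) and for cartilage and valve 1 and 2 of 11 (−0.83, −0.98 corrected). Over the union of all lists, 1 of 1225 genes passed in the 12-library fit, *Nr4a3*, and in the 2-group fit 59 passed as higher and 20 as lower. Of all genes tested in the 2-group fit, 2.15% passed as higher and 0.762% as lower.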

How the data were processed

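RNA of left ventricular wall remote from the infarct was sequenced after ribosomal RNA depletion, 1 mouse per library, so replicates are separate animals. The deposited tables hold raw read counts per gene, which the authors made from alignments with TopHat2 2.0.11 and Bowtie2 2.2.2 to GRCm38 (Cufflinks 2.2.1 is listed too). Which tool counted the reads, whether it used strand and which gene annotation it took are not stated in the sources used here. The CPM, RPKM and log2 values that the authors derived from these counts were deposited beside them and were not used. The lanes of 1d-SHAM + 21 replicate 3 were summed.

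Counts of 12 libraries in 4 groups were filtered (filterByExpr with a minimum count of 10 and a total of 15), TMM-scaled and tested in edgeR 4.0.16 with robust quasi-likelihood F tests (R 4.3.3). The SE of a log2 fold change is its absolute value divided by the square root of F. The groups were also fitted alone, in DESeq2 1.42.0 and in limma-voom 3.58.1, and the fit was tested on simulated data. Corrected fits remove per-library lowess trends (span 0.3). Levels are CPM, not per length, and are not compared between genes.

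The members and the 57 gene and marker lists were chosen with earlier results of these data known. Named genes are those past the 12-library test, the 12 higher and 12 lower protein-coding genes of largest change among those past the 2-group fit without overlap and at 5 CPM or more, up to 4 members of smallest p per list with 1 in the other direction, and a set named whatever its values. From these, the text gives a selection. Genes outside this rule, among them *Sik1*, *Per3*, *Nr1d2*, *Bhlhe41* and *Ckm*, were chosen after their values were seen. Promoter windows are from RefSeq (GRCm38.p6). Some items are not reported here.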

Additional observations from a re-analysis of the deposited data

Results flagged for a closer look

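*C3*, *C7*, *H2-Eb1* and *Cybb* were lower in every MI library than in every sham library after operation at day 1 and higher in every MI library after operation at day 7. The effect at day 7 minus that at day 1 was 4.16 for *C3*, 2.94 for *C7*, 4.10 for *H2-Eb1* and 2.23 for *Cybb* (log2; edgeR adjusted p = 0.101, 0.172, 0.324 and 0.599), so none of these differences passed the test.

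*Ppargc1a* showed the reverse, higher in every MI library at day 1 and lower in every MI library at day 7, with a difference of −2.12 (log2; edgeR adjusted p = 0.599).

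At 3 days after MI at day 1, 1 of the 4 libraries stood apart for *Fn1*, at 544 CPM beside a group mean of 325 CPM. Chance sets 1 library apart in this way in about 1 of 20 groups.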

How the results depend on the processing

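The number of genes past the test moved most. It was 4 with all 12 libraries, 2 with upper-quartile scaling, 154 without a filter on low counts, 1 among protein-coding genes, 328 in DESeq2, 1 in limma-voom, 600 in the 2 groups alone, 161 there with relative log expression scaling, 8 after correction for GC content, length and abundance and 716 after that correction in the 2 groups alone. With 1 library left out it ran from 0 (sham replicate 2 or MI replicate 1) to 1209 (7d-SHAM + 21 replicate 1). In the 2 groups alone it was 7, 3109 and 230 without sham replicates 2, 3 and 5 and 0, 9 and 652 without MI replicates 1, 2 and 3. The number for the difference between operation ages was 0, against 17 without a filter, 2 with 1 lane of the libraries that have a pair, 44 in DESeq2 and 2 after the full correction, and it ran from 0 to 7 with 1 library left out, the 7 without 7d-SHAM + 21 replicate 1. The corrections were chosen after the data were seen. The cause of these shifts was not tested.

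*Nr4a3* passed in 8 of 12 fits with 1 library left out and in 13 of 15 other alternatives, with log2 fold changes from 3.76 to 4.50. It missed the threshold with upper-quartile scaling (edgeR adjusted p = 0.0804) and with the replicate number as a block (0.053). Over the same alternatives *AI506816* passed in 5 of 12 and 8 of 14, *Gm7292* in 9 of 12 and 13 of 14, and *1700030F04Rik* in 10 of 12 and 13 of 14.

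Of 89 genes named with a test, which leave out *mt-Rnr1* and *mt-Tv*, 82 kept their sign under every alternative. The log2 fold change of *Fn1*, −0.01, became 0.025 without a filter, 0.27 with the block and 0.11 in limma-voom. With the block, *Col1a1* became 0.081, *Mki67* 0.11 and *Postn* 0.16. *Postn* was 0.13 after correction for GC content and length, 0.035 after the full one and 0.040 after that in the 2 groups alone, and *Nppa* was −0.059, −0.17 and −0.13 in the same order. With 1 of the 12 libraries left out, *Ankrd1* ran from −0.43 to 0.10, *Col1a1* from −0.44 to 0.018, *Fn1* from −0.23 to 0.47, *Mki67* from −0.54 to 0.19, *Nr4a2* from −0.10 to 0.55 and *Postn* from −0.94 to 0.17. In the 2 groups alone, *Ankrd1* was 0.036 without sham replicate 3, *Col1a1* was 0.0023 without MI replicate 1, *Fn1* was 0.43 without sham replicate 5, *Fn1* was 0.096 without MI replicate 1, *Mki67* was 0.14 without sham replicate 5, *Nr4a2* was −0.14 without MI replicate 2 and *Postn* was 0.13 without sham replicate 5. The median of 15 of the 57 lists changed sign with another scaling and that of 12 when 1 of the 6 libraries was left out.

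The replicate numbers name different animals, and only 2 and 3 occur in both groups. Deviations of libraries with the same number correlated at −0.07 and −0.35, and those with other numbers at −0.41 to 0.38. So few values cannot decide whether the numbers pair the samples. With the replicate block 4 genes passed. Depth limits sham replicate 3 most, with 17226112 counts outside nuclear ribosomal RNA.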
